A study of Mus musculus with 30 samples.

Results

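The genes examined here make haem or bring iron to the place where it is made. They were taken by symbol as a list of 9, namely Alas1, Alas2, Alad, Urod, Cpox, Ppox, Fech, Tfrc and Slc25a37. All 9 were among the 14685 genes of the deposited table, and all 9 passed the filter of more than 1 FPKM in at least 1 sample. RNA was sequenced from 30 samples of the E14 mouse embryonic stem cell (ESC) line as it differentiated to blood in culture. There were 3 genotypes, WT, Sp1_deltaDBD and Sp3KO, each in 5 populations with 2 replicates. Sp1_deltaDBD cells lack the DNA-binding domain of Sp1 and still make a truncated protein, so they are not a null, and Sp3KO cells carry a knockout of Sp3. Both factors bind GC-rich promoter sequence. Each mutation was studied in a line of the E14 background, and how many clones stand behind a genotype is not given in the sources used here. The populations were undifferentiated ESC, Flk1+ cells purified from embryoid bodies, and 3 populations sorted at day 2 of blast culture, the culture in which Flk1+ cells form endothelium and blood. Hemogenic endothelium 1 (HE1) was KIT+ CD41- Tie2+, hemogenic endothelium 2 (HE2) was KIT+ CD41+ Tie2+, and progenitors were KIT+ CD41+ Tie2-. No animal, treatment or drug was involved.

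Haem is built in a fixed series of enzymatic steps shared between mitochondrion and cytosol. Aminolevulinic acid synthase makes the first precursor and exists as a housekeeping form (Alas1) and an erythroid form (Alas2). Alad, Uros and Urod act in the cytosol, the oxidases Cpox and Ppox act at the mitochondrion, and ferrochelatase (Fech) inserts the iron. Tfrc is the transferrin receptor, which takes up iron at the cell surface, and Slc25a37 (mitoferrin 1) carries iron across the inner mitochondrial membrane. Developing red cells need far more haem than other cells because globin carries it, and the pathway is known for its rise during erythroid differentiation, where Gata1 acts on several of its genes.

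The regulatory sequences of these genes are shown first, since the study concerns factors that read promoters. The iron-responsive element, a hairpin with the loop CAGTGN that iron regulatory proteins bind when iron is scarce, is known to block translation when it lies in a 5′ UTR and to stabilise the RNA when it lies in a 3′ UTR. In the GENCODE M21 transcripts (GRCm38), a search for a C, a stem of 5 bases, this loop and 5 bases that pair with the stem found 1 site in Alas2 and 4 sites in Tfrc, and none in the other 7 genes. The Alas2 site lies in the 5′ UTR at chrX:150547464-150547480 and the Tfrc sites in the 3′ UTR between chr16:32631225 and chr16:32631732, all on the plus strand. Such a site was present in 0.155% of the 5′ UTRs and 0.522% of the 3′ UTRs of the coding transcripts of the genes tested. The capitals mark the loop.
Alas2 5′ UTR: cgtcctCAGTGCagggc
Tfrc 3′ UTR, chr16:32631225-32631241: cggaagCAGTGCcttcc
Tfrc 3′ UTR, chr16:32631604-32631620: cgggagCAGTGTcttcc
Tfrc 3′ UTR, chr16:32631669-32631685: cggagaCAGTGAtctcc
Tfrc 3′ UTR, chr16:32631716-32631732: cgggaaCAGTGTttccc

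RefSeq promoter windows (GRCm38.p6) were found for 7 of the 9 genes. The 250 bases before the transcription start nearest to the principal GENCODE transcript were searched on both strands for the GC box GGGCGG, which Sp factors are known to bind, for the GATA motif AGATAA, for the CCAAT box CCAAT and for the CACCC motif CCNCNCCC. The last of these can overlap a GC box. Among the promoters of 10547 tested genes, 59.5% held a GC box, 5.92% the GATA motif, 36.4% a CCAAT box and 65.1% a CACCC motif. A GC box was present in 3 of the 7 genes, with 6 in Alad, 1 in Alas2 and 1 in Urod. Of the 7, AGATAA was present in Alas2 alone. Other forms of the GATA motif were not searched, so the other genes may hold one. Ppox held 4 CCAAT boxes. Alas1, Cpox, Ppox and Tfrc had no GGGCGG in this window. A CACCC motif was present in 4 of the 7 genes, near the share over all promoters, with 4 in Alas2, 4 in Alad, 3 in Tfrc and 2 in Alas1. The 4 runs below belong to genes whose level differed between genotypes, and the capitals mark GC boxes, GATA motifs and CCAAT boxes. Each run stops where an annotated exon of the gene begins, so the GC box of Alas2, 26 to 21 bases before its RefSeq start, is not in its run.
Alas2, chrX:150547167-150547374, plus strand: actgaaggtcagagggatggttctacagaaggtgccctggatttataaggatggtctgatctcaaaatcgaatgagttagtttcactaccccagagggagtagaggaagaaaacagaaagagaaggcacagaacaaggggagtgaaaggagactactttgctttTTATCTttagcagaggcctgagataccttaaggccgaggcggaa
Alad, chr4:62519919-62520159, minus strand: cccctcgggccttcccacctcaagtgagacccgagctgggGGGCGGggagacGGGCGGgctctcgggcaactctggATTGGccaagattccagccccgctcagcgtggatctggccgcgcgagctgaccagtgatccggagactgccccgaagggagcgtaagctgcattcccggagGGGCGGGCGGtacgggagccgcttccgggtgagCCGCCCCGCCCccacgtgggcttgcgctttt
Ppox, chr1:171281187-171281436, minus strand: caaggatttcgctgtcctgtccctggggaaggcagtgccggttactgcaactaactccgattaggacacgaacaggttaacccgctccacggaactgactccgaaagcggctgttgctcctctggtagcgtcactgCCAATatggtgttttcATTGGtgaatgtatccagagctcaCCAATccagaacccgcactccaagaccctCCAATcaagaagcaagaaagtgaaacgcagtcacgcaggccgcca
Tfrc, chr16:32608646-32608895, plus strand: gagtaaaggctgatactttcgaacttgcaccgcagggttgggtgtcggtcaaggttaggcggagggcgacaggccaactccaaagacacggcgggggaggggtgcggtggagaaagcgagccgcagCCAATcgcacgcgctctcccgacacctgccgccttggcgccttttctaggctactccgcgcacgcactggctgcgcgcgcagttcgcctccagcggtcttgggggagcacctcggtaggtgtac

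The values are FPKM, fragments scaled to transcript length and to library size, which the authors had quantile normalised across the 30 samples, so that all samples shared nearly the same distribution with a median of 7.19 FPKM. No read counts go with them and the depth of each sample is unknown. Differences are given on the log2(FPKM + 0.1) scale with their standard error from limma, which was fitted to all 30 samples at once, and a gene is called where its adjusted p is below 0.05. Sp3, the targeted gene, was at 3.38 to 7.79 FPKM in the Sp3KO samples and 25.9 to 58.1 FPKM in the WT samples. Sp1 was at 14.8 to 40.5 FPKM in Sp1_deltaDBD and 24.9 to 52.4 FPKM in WT samples, and since only part of the gene is deleted this level does not check the mutation. The sorting markers matched the gates with 2 exceptions. Itga2b, which encodes CD41, was at 34.8 to 83.3 FPKM in the HE1 samples, which were sorted as CD41-. Tek, which encodes Tie2, was still present in progenitors, which were sorted as Tie2-. There it was at 8.67 and 5.95 FPKM in WT, 15.7 and 9.54 FPKM in Sp1_deltaDBD and 13.6 and 17.5 FPKM in Sp3KO samples, against 57.7 to 234 FPKM in HE1 and HE2. The summed FPKM of the 3 fibroblast markers in the table was 173 in WT HE1 replicate 1 and 17.4 in replicate 2, and this sample enters each HE1 comparison with WT. The 4 epithelial markers summed to 711 and 63.0 FPKM in replicates 1 and 2 of WT HE1, 217 and 14.2 FPKM in WT HE2, 223 and 9.12 FPKM in Sp1_deltaDBD HE1 and 120 and 8.48 FPKM in Sp1_deltaDBD HE2. In Sp3KO samples of these populations they summed to 25.6 to 72.6 FPKM. In progenitors the epithelial markers summed to 138 and 34.5 FPKM in WT, 64.6 and 6.86 FPKM in Sp1_deltaDBD and 35.9 and 31.1 FPKM in Sp3KO samples. The part of these markers in the HE1, HE2 and progenitor results was not tested, and those results are also given without single libraries.

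In WT cells 7 of the 9 genes had their highest mean level in progenitors, Tfrc was highest in ESC, and Alas1 had its lowest level in progenitors. In these bulk samples, more cells of a type and more RNA per cell cannot be told apart. Alas2 spanned the widest range. It was at 1.03 and 2.56 FPKM in the 2 ESC samples, 6.46 and 8.35 FPKM in Flk1+ cells, 3.89 and 3.69 FPKM in HE1, 11.0 and 5.96 FPKM in HE2, and 55.0 and 35.5 FPKM in progenitors. The progenitor samples stood above all the others, 25.2-fold above ESC by the group means, and HE2 and Flk1+ samples overlapped. Fech was at 9.27 and 9.94 FPKM in ESC, 10.2 and 10.2 FPKM in Flk1+ cells, 15.7 and 16.2 FPKM in HE1, 18.0 and 19.7 FPKM in HE2, and 60.1 and 48.1 FPKM in progenitors. No neighbouring populations overlapped for Fech, which stood higher at each later stage, although the differences from ESC to Flk1+ cells and from HE1 to HE2 did not pass the test (limma adjusted p = 0.699 and 0.348).

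**Figure D1:**
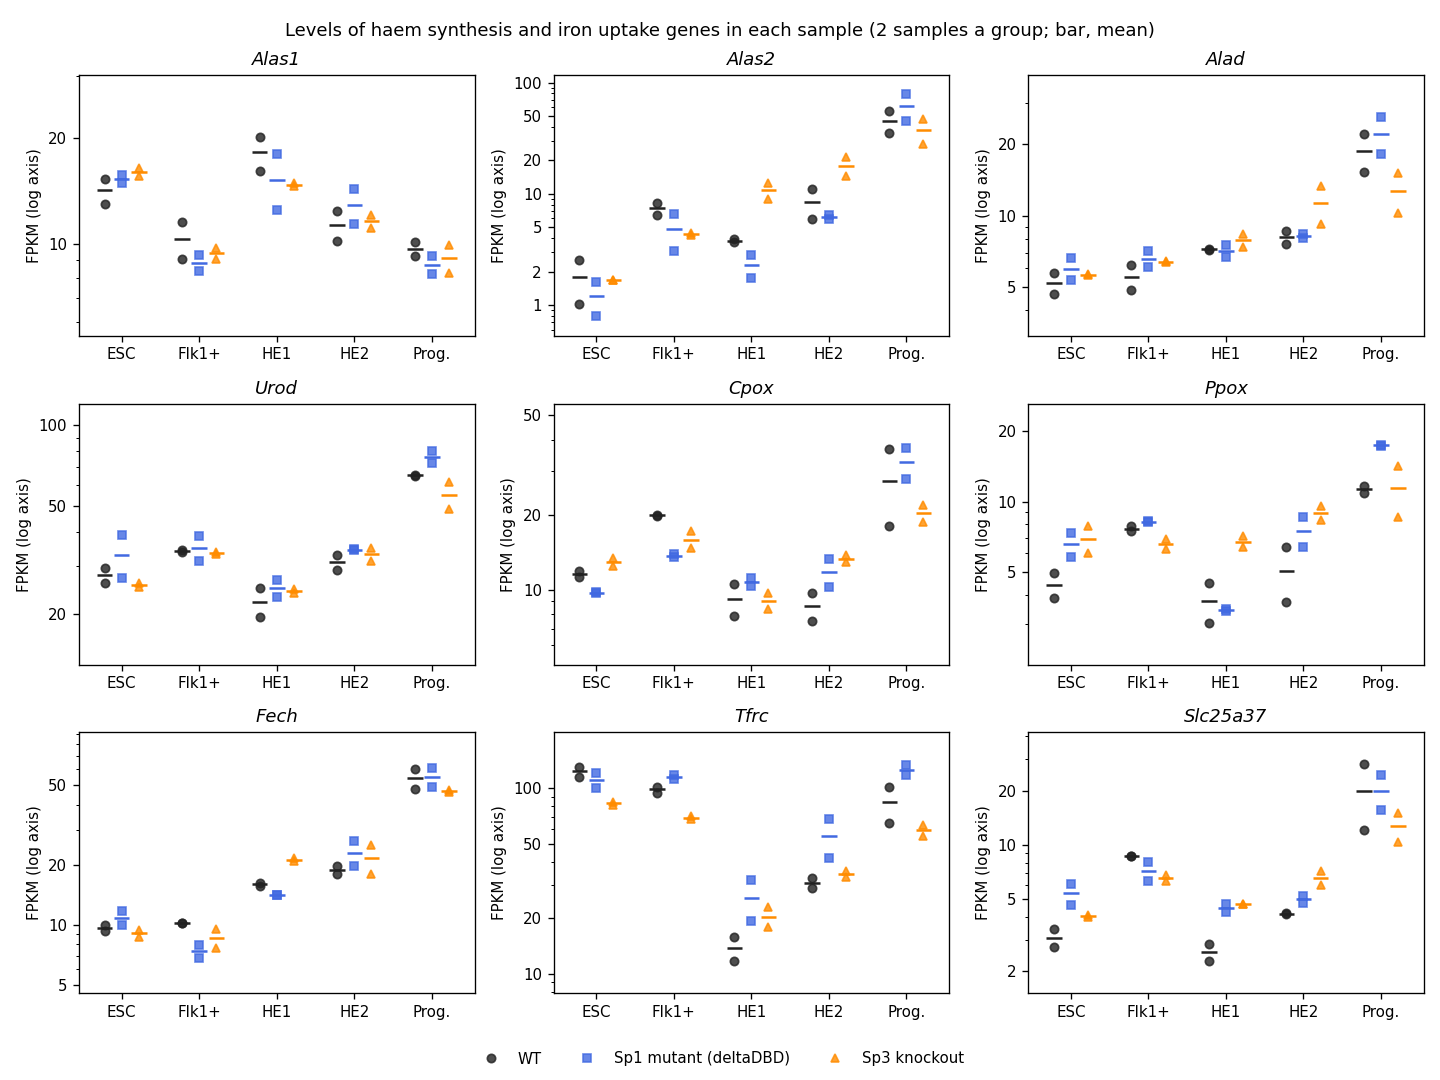
Each panel plots the FPKM of 1 gene (vertical log axis) in the 30 samples by population, with 2 samples for each genotype and a bar at their mean. Alas2 runs from 0.795 to 78.3 FPKM over the samples, Tfrc is low in HE1 in all genotypes, and Alas1 stays between 8.20 and 20.2 FPKM.

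Tfrc behaved unlike the enzymes. It was at 115 and 130 FPKM in WT ESC, 102 and 94.7 FPKM in Flk1+ cells, 11.8 and 15.9 FPKM in HE1, 32.9 and 28.9 FPKM in HE2, and 102 and 65.1 FPKM in progenitors. The HE1 samples were the lowest, 8.86-fold below ESC by the group means, and the Flk1+ and progenitor samples overlapped. Slc25a37, which feeds iron to ferrochelatase, had a shallower dip at the same stage. Its WT values were 3.43 and 2.72 FPKM in ESC, 8.72 and 8.73 FPKM in Flk1+ cells, 2.27 and 2.83 FPKM in HE1, 4.19 and 4.18 FPKM in HE2, and 28.0 and 12.1 FPKM in progenitors. ESC and HE1 samples overlapped for Slc25a37, and the progenitor samples were the highest.

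The other members moved less. Urod, the decarboxylase that makes coproporphyrinogen, ran from a WT mean of 22.1 FPKM in HE1 to 65.2 FPKM in progenitors (2.95-fold). Alad ran from 5.20 FPKM in ESC to 18.7 FPKM in progenitors (3.60-fold). The oxidases Cpox and Ppox had WT means of 8.62 to 27.4 FPKM and 3.74 to 11.3 FPKM, with their highest in progenitors. For Cpox the progenitor and Flk1+ samples overlapped, at 36.8 and 18.1 FPKM against 19.8 and 19.9 FPKM. Alas1 had the narrowest range, with a WT mean of 18.2 FPKM in HE1 and 9.63 FPKM in progenitors (1.88-fold), and its progenitor, Flk1+ and HE2 samples overlapped in part.

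FPKM is scaled to transcript length, so the levels of the 2 synthases can be set against each other. In WT the Alas2 to Alas1 ratio was 0.0790 and 0.168 in ESC, 0.562 and 0.921 in Flk1+ cells, and 0.241 and 0.183 in HE1. It reached 1.08 and 0.482 among the HE2 samples and 5.47 and 3.86 among the progenitor samples. Alas1 RNA was thus the higher in the WT samples up to HE1, and Alas2 RNA in both progenitor samples. In HE2 the WT samples lay on either side of 1. The Sp1_deltaDBD samples had ratios of 0.418 and 0.567 in HE2 and 9.56 and 4.84 in progenitors. In Sp3KO cells the ratio was 0.601 and 0.861 in HE1, above the WT and Sp1_deltaDBD samples of that population, and 1.3 and 1.77 in HE2, also above both. The Sp3KO progenitors, at 2.80 and 5.72, overlapped WT. These ratios are descriptions and were not tested.

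**Figure D2:**
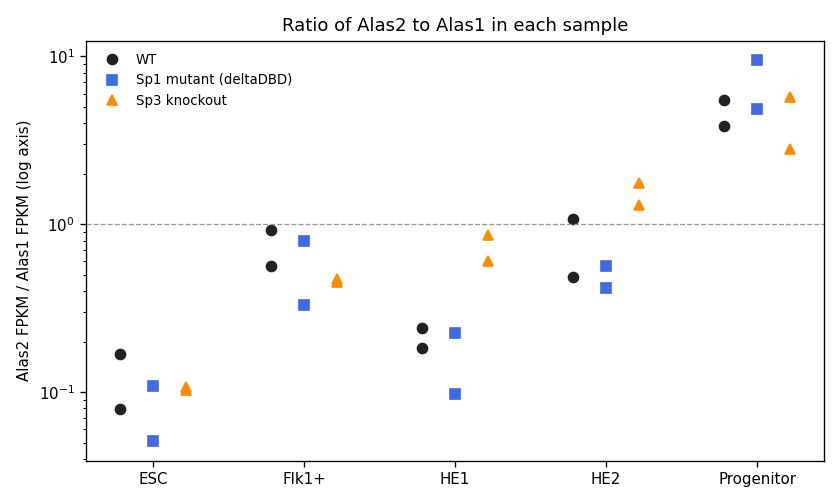
The ratio of Alas2 FPKM to Alas1 FPKM (vertical log axis) is plotted for each of the 30 samples by population and genotype, and the dashed line marks equal levels. It is below 1 in all ESC, Flk1+ and HE1 samples and above 1 in all progenitor samples, and in HE2 both Sp3KO samples (1.3 and 1.77) lie above it.

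The first question was how the genes change from each WT population to the next. From ESC to Flk1+ cells, 4 genes rose and 1 fell, where 27.4% of all 14525 genes tested rose and 24.7% fell. Alas2 rose by 2.1 ± 0.446 (SE) on the log2 scale (4.29-fold, limma adjusted p = 0.000584), Slc25a37 by 1.48, Ppox by 0.80 and Cpox by 0.77, and Alas1 fell by 0.46. The Alas1 call was lost, with an adjusted p of 0.213 and 0.286, when ESC WT replicate 2 or Flk1 WT replicate 2 was left out, and the calls of Cpox and Ppox were lost without 1 and 2 of the libraries in turn. From Flk1+ cells to HE1, 2 genes rose and 5 fell, where 23.5% and 29.5% of all genes did. Tfrc fell by 2.84 ± 0.239 (SE), to 0.140 of its level, with the lowest adjusted p of any gene on the list (limma, 1.44e-08). Slc25a37 fell by 1.74, Cpox by 1.12, Ppox by 1.04 and Urod by 0.63, while Alas1 rose by 0.82 and Fech by 0.64. The Urod call was lost without HE1 WT replicate 1 (adjusted p = 0.0540). The genes that fell were thus both iron carriers and 3 of the middle enzymes, and those that rose were the housekeeping synthase and ferrochelatase.

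From HE1 to HE2, the step at which CD41 appears at the surface, Tfrc rose by 1.17 (2.24-fold, limma adjusted p = 0.00186) and Urod by 0.49, and Alas1 fell by 0.68. The other 6 genes were not called, and 11.7% of all genes rose and 10.2% fell. The Urod call, with an adjusted p of 0.0314, was lost without HE1 WT replicate 1 (0.308), HE2 WT replicate 1 (0.184) or HE2 WT replicate 2 (0.0508), and the Alas1 call without HE1 WT replicate 2 (0.105) or HE2 WT replicate 1 (0.0998). The Urod call was also lost with the GC content and length correction (0.0514) and with median of ratios scaling (0.0796). The last step, from HE2 to progenitors, was the one at which most of the list rose. Here 8 of 9 genes rose and none fell, where 5.46% of all genes rose and 7.78% fell. The median log2 change was 1.40 for the 9 genes and 0.04 for all genes. Alas2 rose by 2.43 ± 0.446 (SE), 5.40-fold (limma adjusted p = 0.000879). Slc25a37 rose by 2.11 (4.32-fold), Cpox by 1.58 (2.99-fold), Fech by 1.51 (2.84-fold) and Tfrc by 1.40 (2.64-fold). Ppox, Alad and Urod rose by 1.20, 1.18 and 1.07. Alas1 had a log2 difference of -0.22 and was not called (adjusted p = 0.505). Of these 8 calls only that of Ppox was lost when a library was left out, with an adjusted p of 0.0793 without HE2 WT replicate 1.

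**Figure D3:**
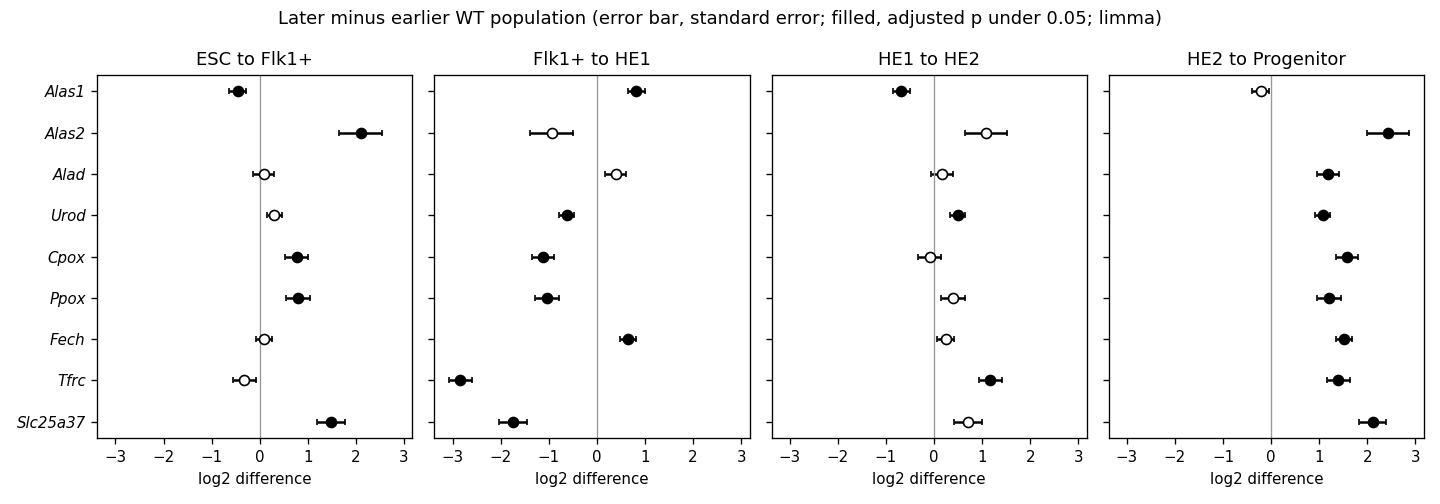
The log2 difference of each gene between neighbouring WT populations (horizontal axis, later minus earlier) is drawn with its standard error, and filled points have an adjusted p under 0.05 in limma. Tfrc stands at -2.84 from Flk1+ to HE1, and 8 of 9 genes are to the right of 0 from HE2 to progenitors.

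Red cell genes moved with this last step. Of 16 erythroid markers, 15 were in the table, and 13 of the 15 rose from HE2 to progenitors in WT cells and 10 from HE1 to HE2. Their summed FPKM was 57.0 to 116 in WT HE1, 562 to 1077 in HE2 and 5419 to 14931 in progenitors, where the embryonic globin Hbb-bh1 alone was at 2745 and 10321 FPKM. Hba-x, Hbb-y, Hba-a1 and Hba-a2 were at 0 in both WT ESC samples. At this step 3 of 7 megakaryocyte and 3 of 7 myeloid markers were also called higher, and all 8 endothelial markers fell. The shares over all genes at this step were 5.46% higher and 7.78% lower. The part of these markers in the change of the haem genes was not tested.

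**Figure D4:**
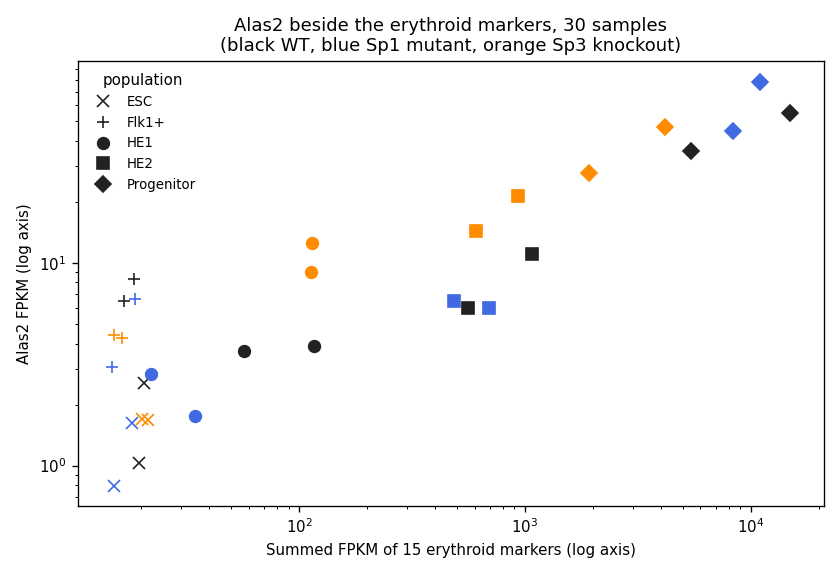
Each point is 1 of the 30 samples, with the summed FPKM of the 15 erythroid markers on the horizontal log axis and the FPKM of Alas2 on the vertical log axis, and colour gives the genotype and shape the population. The progenitor samples lie at the upper right, and the 2 Sp3KO HE1 samples (8.97 and 12.5 FPKM) lie above the 2 WT HE1 samples (3.89 and 3.69 FPKM).

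The rest of the pathway was read from lists of genes that are not members. From HE2 to progenitors 5.46% of all genes rose and 7.78% fell. Of 17 other haem pathway genes tested, 6 rose and 2 fell at this step. Uros, which closes the ring, rose by 1.24, from 6.14 and 5.33 FPKM to 17.2 and 10.8 FPKM. The mitochondrial transporters Abcb10 and Abcb6 rose by 1.57 and 1.15. The 2 that fell, named here after their values were seen, were the haem oxygenases Hmox1 and Hmox2, which break haem down (-0.85 and -0.38). Of 17 other iron handling genes 4 rose and 2 fell. The iron exporter Slc40a1 (ferroportin) fell by 1.81, and Ncoa4, which delivers ferritin for degradation, rose by 0.90. Of 18 genes of iron-sulphur cluster assembly, 2 rose, Glrx5 by 0.80 and Isca2 by 0.64. The counts of 2 in these lists are near the shares over all genes.

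The second question was whether a mutation in Sp1 or Sp3 changed these genes within a population. Few did. Sp1_deltaDBD cells differed from WT cells in 2 of 45 gene and population pairs, and Sp3KO cells in 3 of 45, all 5 of them higher in the mutant. Among all genes, 6.06%, 5.54%, 10%, 9.67% and 8.78% were called in Sp1_deltaDBD ESC, Flk1+ cells, HE1, HE2 and progenitors, and 11.3%, 12.6%, 10.9%, 13.8% and 8.65% in Sp3KO cells of these populations. With 9 genes a population, these counts are near those shares. None of the 9 genes was called in ESC, Flk1+ cells or progenitors of either mutant. Without adjustment, 10 of the 45 pairs had a limma p under 0.05 in Sp1_deltaDBD cells and 13 in Sp3KO cells. The share of all genes under this unadjusted threshold is not given here, so these 2 counts cannot be read as an excess.

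Both calls in Sp1_deltaDBD cells were of Tfrc, in the hemogenic endothelium. In HE1 it was at 19.2 and 32.2 FPKM in the mutant against 11.8 and 15.9 FPKM in WT, and for HE2 the values were 42.1 and 68.0 FPKM against 32.9 and 28.9 FPKM. The mutant samples were above the WT samples in both populations. Tfrc in Sp1_deltaDBD exceeded WT by 0.86 ± 0.239 (SE) in HE1 (1.81-fold, limma adjusted p = 0.0283). In HE2 it exceeded WT by 0.79 ± 0.239 (SE) (1.73-fold, limma adjusted p = 0.0413). Neither call held with a correction for GC content and length (limma adjusted p = 0.0642 in HE1 and 0.0645 in HE2) or with each population fitted alone (0.20 and 0.198), and that in HE2 was lost without the intensity trend (0.0595). They also rest on few libraries. The adjusted p rose to 0.250 without HE1 WT replicate 1 and 0.386 without HE1 Sp1_deltaDBD replicate 2, and in HE2 to 0.0995, 0.168 and 0.438 without WT replicate 1, WT replicate 2 and Sp1_deltaDBD replicate 2. In progenitors Tfrc was at 133 and 117 FPKM in the mutant against 102 and 65.1 FPKM, and this was not called (adjusted p = 0.125).

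The Sp3KO calls were of haem enzymes, in the same populations. Alas2 was at 8.97 and 12.5 FPKM in Sp3KO HE1 against 3.89 and 3.69 FPKM in WT, a difference of 1.46 ± 0.446 (SE) (2.75-fold, limma adjusted p = 0.0410). The Sp3KO samples were above the WT samples, but the call was lost when any of the 4 libraries was left out (adjusted p of 0.0840 to 0.253). Ppox, which makes protoporphyrin, was at 6.37 and 7.09 FPKM against 3.01 and 4.48 FPKM in HE1 and at 9.58 and 8.35 FPKM against 3.72 and 6.38 FPKM in HE2. It was higher by 0.85 and 0.86 (limma adjusted p = 0.0360 and 0.0296). Without WT replicate 1 of the population, the adjusted p of Ppox was 0.314 in HE1 and 0.361 in HE2, and each call was lost without either Sp3KO library as well. With each population fitted alone all 3 Sp3KO calls were lost (adjusted p of 0.0880 for Alas2, 0.144 and 0.209 for Ppox). The Alas2 call was also lost without the intensity trend (0.0528), and that of Ppox in HE1 with median of ratios scaling (0.0530). Slc25a37 was at 4.72 and 4.72 FPKM in Sp3KO HE1 against 2.27 and 2.83 FPKM in WT, just short of the threshold (0.87, adjusted p = 0.0576).

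**Figure D5:**
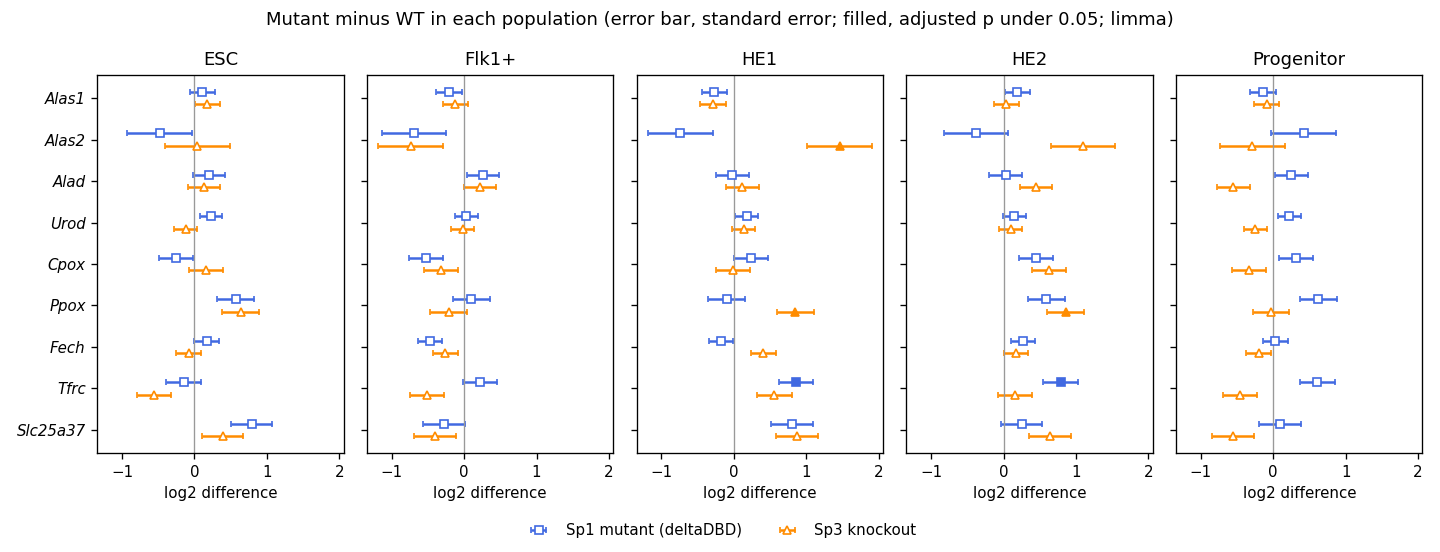
The log2 difference between mutant and WT (horizontal axis) is drawn for each gene in each population with its standard error, squares for Sp1_deltaDBD and triangles for Sp3KO, and filled points have an adjusted p under 0.05 in limma. The 5 filled points are Tfrc in Sp1_deltaDBD HE1 and HE2, and Alas2 (HE1) and Ppox (HE1 and HE2) in Sp3KO cells.

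The erythroid markers of the same samples were as follows. In HE1 their summed FPKM was 113 and 114 in Sp3KO, 116 and 57.0 in WT, and 34.6 and 22.1 in Sp1_deltaDBD samples. Klf1, Hba-a1 and Slc4a1 had the same values in Sp1_deltaDBD HE1, 0.000941 and 0.00251 FPKM in the 2 samples. Such shared low values can be the floor of the quantile normalisation, so values above 0 do not show that these genes were detected. Against WT, 3 of the 15 were called higher in Sp3KO HE1, namely Epor (1.38), Nfe2 (1.69) and Sptb (1.45), and Hba-x and Hbb-y were called lower in Sp1_deltaDBD HE1 (-2.36 and -2.76). Among all genes 10.9% and 10% were called in these comparisons, so the 2 lower markers are near their share. The embryonic globins were not called in Sp3KO HE1. Mean Hbb-bh1 was above WT (61.8 against 40.8 FPKM), and mean Hba-x (14.4 against 21.4 FPKM) and Hbb-y (7.78 against 8.19 FPKM) were below. Itga2b was at 83.3 and 81.8 FPKM in Sp3KO HE1 and 34.8 and 49.2 FPKM in WT HE1. The part of these differences in that of Alas2 and Ppox was not tested.

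Averaged over the 5 populations, Ppox was higher in each mutant, though not in every population. Its log2 difference from WT was -0.21 in Flk1+ cells and -0.03 in progenitors of Sp3KO, and -0.1 in Sp1_deltaDBD HE1. In the remaining populations of each mutant Ppox was above WT. The mean difference was 0.36 ± 0.113 (SE) in Sp1_deltaDBD (1.28-fold, limma adjusted p = 0.0216) and 0.42 ± 0.113 (SE) in Sp3KO cells (1.34-fold, limma adjusted p = 0.00597). Tfrc was higher by 0.47 ± 0.107 (SE) in Sp1_deltaDBD cells (1.38-fold, limma adjusted p = 0.00253) and was not called in Sp3KO cells (-0.16, adjusted p = 0.235). These 3 were the only calls of 18. The Ppox call in Sp1_deltaDBD cells was lost with the culture series as a random effect (limma adjusted p = 0.116), without HE1 WT replicate 1 (0.0554) and without HE2 WT replicate 1 (0.0543). In this comparison of 10 samples with 10, 31.9% and 40.5% of all genes were called in Sp1_deltaDBD and Sp3KO cells, so the 2 and 1 of 9 found here lie below the share over all genes. The comparisons of both mutants share the WT samples.

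A difference called in 1 mutant and not in the other does not show that the mutants differ, so they were compared directly, with no WT sample involved. Of 45 pairs 6 were called, 4 higher and 2 lower in Sp3KO, and among all genes 9.67%, 7.39%, 13.6%, 15.9% and 11.6% were called in ESC, Flk1+ cells, HE1, HE2 and progenitors. Taken over the populations together, 6 of 45 is near those shares. Alas2 differed most. It was at 8.97 and 12.5 FPKM in Sp3KO HE1 against 1.75 and 2.82 FPKM in Sp1_deltaDBD HE1, a difference of 2.20 ± 0.446 (SE) (4.61-fold, limma adjusted p = 0.00285). In HE2 it was at 14.4 and 21.3 FPKM against 5.98 and 6.48 FPKM, a difference of 1.48 (2.79-fold, limma adjusted p = 0.0291). The HE1 difference of Alas2 kept its call without any 1 of the 4 libraries, with an adjusted p of at most 0.0471, while that in HE2 kept it in 1 of 4 cases. In HE1 Ppox and Fech were also higher in Sp3KO, by 0.95 and 0.58, with Fech at 20.9 and 21.6 FPKM against 14.1 and 14.1 FPKM. Both of these calls were lost without any 1 of the 4 libraries, with an adjusted p of 0.0546 to 0.125 for Ppox and 0.0801 to 0.147 for Fech.

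In progenitors the direction was the other way. Tfrc was at 55.4 and 63.2 FPKM in Sp3KO against 133 and 117 FPKM in Sp1_deltaDBD progenitors, a log2 difference of -1.07 ± 0.239 (SE) (0.475-fold, limma adjusted p = 0.00642). Alad was at 10.3 and 15.2 FPKM against 26.2 and 18.2 FPKM, a log2 difference of -0.80 (0.574-fold, limma adjusted p = 0.0267). Neither pair of groups overlapped. Both calls were lost without replicate 1 of either genotype (adjusted p of 0.0517 and 0.0632 for Tfrc, and 0.230 and 0.268 for Alad). With each population fitted alone, Alas2 in HE1 was the 1 call of these 6 that was kept. Of the 9 genes 8 had a lower mean in Sp3KO than in Sp1_deltaDBD progenitors, 7 of them with no overlap, where 24.8% of all genes had both Sp3KO samples below both Sp1_deltaDBD samples. Their median log2 difference was -0.65 against 0.03 over all genes. Hmox1, the haem oxygenase, was called higher by 1.38. The erythroid markers summed to 1920 and 4159 FPKM in Sp3KO, 10966 and 8365 FPKM in Sp1_deltaDBD, and 14931 and 5419 FPKM in WT progenitors. Hbb-bh1 alone was at 1111 and 2128 FPKM in Sp3KO and 7014 and 5094 FPKM in Sp1_deltaDBD. Of the 15, 2, Slc4a1 among them, were called lower in Sp3KO than in Sp1_deltaDBD progenitors. By group means only Epor (27.1 against 21.3 FPKM) and Bpgm (12.7 against 11.2 FPKM) were higher. Of 7 megakaryocyte markers 4 were called lower. Among all genes 11.6% were called in either direction. The part of these lineages in the values of Tfrc and Alad was not tested.

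The last question was whether a step between populations differed in a mutant from the same step in WT. None of 72 tests passed the threshold in limma, although 15 had an unadjusted p under 0.05. That count too is given without the share of all genes under the unadjusted threshold and cannot be read as an excess. Among all genes, 1.74%, 1.53%, 0.00688% and 0.0207% were called for the 4 steps in Sp1_deltaDBD cells and 1.48%, 4.02%, 0% and 0.0275% in Sp3KO cells. The lowest adjusted p was 0.0556, for Alas2 from Flk1+ cells to HE1. In WT Alas2 was at 6.46 and 8.35 FPKM in Flk1+ cells and 3.89 and 3.69 FPKM in HE1, and in Sp3KO cells at 4.26 and 4.42 FPKM and then 8.97 and 12.5 FPKM. The samples moved down in WT and up in Sp3KO, a difference between the steps of 2.20 ± 0.630 (SE). For Slc25a37 and Tfrc the same step differed by 1.28 and 1.06 (adjusted p = 0.0839 and 0.0829). With the replicate block Alas2 and Tfrc were called at this step (limma adjusted p = 0.0390 and 0.0357), and with the culture series as a random effect Alas2, Tfrc and Slc25a37 were (0.0292, 0.0414 and 0.0498).

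From HE2 to progenitors, all 9 genes had a smaller log2 change in Sp3KO than in WT cells, with a median difference of -0.90 against 0.02 over all genes, and the lowest adjusted p was 0.552. The change of Alas2 at this step was 2.43 in WT, 3.23 in Sp1_deltaDBD and 1.04 in Sp3KO cells. For Slc25a37 it was 2.11, 1.95 and 0.91, and for Alad 1.18, 1.40 and 0.17. Both progenitor samples were above both HE2 samples for 8 of 9 genes in WT, 8 in Sp1_deltaDBD and 6 in Sp3KO cells, where 25.3%, 26.2% and 33.8% of all genes were. Alad and Ppox were the genes that overlapped in Sp3KO cells alone. The median log2 change over the 9 genes was 1.40, 1.26 and 0.72. Within HE2 all 9 genes had a mean log2 level above WT in Sp3KO cells, 6 of them with no overlap, where 31.8% of all genes lay above WT with no overlap. Within progenitors all 9 had one below WT, 4 of them with no overlap, where 23.4% of all genes lay below WT with no overlap.

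Across the 15 group means, Pearson's r of log2(FPKM + 0.1) between the 6 enzymes other than Alas1 ran from 0.532 (Cpox and Fech) to 0.929 (Alad and Fech). The highest r of any pair was 0.943, between Urod and Slc25a37. Alas1 ran against them, with a median r of -0.699 with the other 8 genes, and Tfrc was loosely related, with a median r of 0.257. Of the genes outside the list, those most like Alas2 were Epor, the erythropoietin receptor (r = 0.977), and Tnrc6b (0.961). Those most like Alad were Ank1, an ankyrin of the red cell membrane (0.969), and Uros (0.968). The most alike gene was Hp for Urod (0.942), Slc38a5 for Cpox (0.939), Tspan33 for Ppox (0.894) and Rab37 for Slc25a37 (0.916). The genes most like Tfrc were Cep295 (0.979) and Nup153 (0.973), those most like Alas1 Mcam (0.960) and Bex1 (0.957), and the one most like Fech Gp5, a platelet glycoprotein (0.962). These r are descriptions over 15 points that share the same 5 populations and the same normalisation.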

How the data were processed

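RNA was sequenced from 30 samples, 5 populations of 3 genotypes with 2 replicates each, which the study's methods call biological (whether they were separate cultures is not stated). Libraries were made with a stranded total RNA kit after ribosomal RNA removal. The authors trimmed the reads, aligned to mm10 using HISAT2 2.1.0, derived FPKM per gene using StringTie 1.3.3 (versions from the submitters' processing notes), removed genes that passed 1 FPKM in no sample and then quantile normalised the table. The deposited FPKM values therefore hide any change shared by most genes. Read counts were not used here and depth is unknown, so the error is the spread between replicates. No 2 samples were identical.

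Samples were grouped by their labels. The 14525 genes above 1 FPKM in at least 1 sample were fitted as log2(FPKM + 0.1) in limma 3.58.1 (R 4.3.3), with 15 group means, an intensity trend, and 15 residual and 3.92 prior degrees of freedom. Tests were two-sided, with Benjamini-Hochberg adjustment over all genes within a comparison. The smallest p an exact permutation of 2 against 2 samples allows is 0.333. Samples of 1 genotype and number deviated together across HE1, HE2 and progenitors. The correlation of their deviations was between 0.362 and 0.429 in WT, 0.412 and 0.609 in Sp1_deltaDBD, and 0.0453 and 0.153 in Sp3KO samples, so these samples are not fully independent. Alternatives were a pseudocount of 1 or 0.01, no filter, a group mean above 3 FPKM, no trend, a replicate block, a correction for GC content and length (splines with 4 degrees of freedom), both together, the culture series as a random effect, median of ratios scaling, each population alone, and leaving out each library. The fit was tested on simulated data.

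The 9 genes and the other gene lists were chosen with earlier results of these data known. All 9 are named, with Sp1, Sp3 and the sorting markers. Of another list, up to 4 genes with the lowest adjusted p in a comparison are named, and for likeness up to 2 genes with the highest Pearson correlation over the group means, among genes with a group mean above 3 FPKM. Promoters came from RefSeq (GRCm38.p6) and transcripts from GENCODE M21. Tables were made with Python 3.11.15, pandas 2.3.3 and numpy 2.4.6. Some genes of these lists are not reported here.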

Additional observations from a re-analysis of the deposited data

Results flagged for a closer look

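The effects of the 2 mutations differed from each other in 6 of 45 gene and population pairs, by the direct test of Sp3KO against Sp1_deltaDBD (limma adjusted p below 0.05). Among all genes 9.67%, 7.39%, 13.6%, 15.9% and 11.6% were called in ESC, Flk1+ cells, HE1, HE2 and progenitors. The count of 6 is thus near the share over all genes. In HE1 the differences on the log2 scale were 2.20 for Alas2, 0.95 for Ppox and 0.58 for Fech, and in HE2 1.48 for Alas2. In progenitors they were -0.80 for Alad and -1.07 for Tfrc. Alas2 in HE1 was the only one of the 6 whose call held without each of the 4 libraries in turn. In HE1 6 of 15 erythroid markers were called higher in Sp3KO than in Sp1_deltaDBD, and in progenitors 2 of 15 were called lower. The 2 of 15 are near the 11.6% of all genes called in progenitors. No group had enough samples for a test of outlying samples.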

How the results depend on the processing

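Of 607 recomputed values of called genes, 541 kept their call, 66 lost it and 0 changed direction (18 of 322 for the WT steps and 48 of 285 for the other comparisons lost it). For Sp1_deltaDBD against WT, 2 gene and population pairs were called, but 1 without the intensity trend, 1 with the GC content and length correction (neither Tfrc call kept, and Ppox in progenitors called instead, adjusted p = 0.0369) and 0 with each population alone. For Sp3KO against WT the count of 3 became 5 with the GC content and length correction, 6 with that and the replicate block, and 1 with each population alone (none of the 3 kept, and Tfrc called lower in Flk1+ cells instead, adjusted p = 0.0258). The 3 mean effects became 5 with the correction and the block. The 6 calls of Sp3KO against Sp1_deltaDBD became 2 with each population alone (Alas2 in HE1 kept, and Tfrc in Flk1+ cells called in addition, adjusted p = 0.0261). The 0 step differences became 1 with a pseudocount of 1, 2 with the replicate block, 2 with the correction, 4 with both and 3 with the culture series as a random effect, and Alas2 in Sp3KO from Flk1+ cells to HE1 was called under all 5 (limma adjusted p of 0.0292 to 0.0481). The cause of these shifts was not tested, except that fewer samples enter a fit of each population alone.

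Leaving out 1 library gave 1 to 5 calls for Sp1_deltaDBD against WT, 1 to 7 for Sp3KO against WT, 2 to 5 for the mean effects, 4 to 8 for Sp3KO against Sp1_deltaDBD, 20 to 24 for the 23 calls of the WT steps and 0 to 3 for the step differences. A library alone in its group is then assumed to vary like the other groups. The labels do not say that a replicate number is shared between genotypes, and the correlation of same-numbered samples was between 0.23 and 0.47 for WT and Sp1_deltaDBD and between 0.0103 and 0.193 for WT and Sp3KO. With the replicate block 2, 3, 3, 8, 22 and 2 calls were made in these 6 families. Alas2 in HE1 between the mutants and the 8 WT calls from HE2 to progenitors held under every alternative other than leaving out libraries.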

Other observations

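Iron handling and iron-sulphur genes outside the list of 9 were also compared between genotypes. Aco1, whose protein is both cytosolic aconitase and iron regulatory protein 1, was called lower in Sp3KO than in WT ESC, HE2 and progenitors, with log2 differences of -0.72, -0.66 and -0.64 (limma adjusted p = 0.00181, 0.00318 and 0.00580). It was also called lower in Sp1_deltaDBD HE2 (-0.48, limma adjusted p = 0.0249). Steap3, which reduces iron in the endosome, was called lower than in WT in Sp3KO progenitors (-1.98, limma adjusted p = 0.00702) and in Sp1_deltaDBD HE2 (-1.55, limma adjusted p = 0.0249). Pcbp2 was called lower in the progenitors of both mutants (-0.73 in Sp1_deltaDBD and -0.77 in Sp3KO). Of 17 other iron handling genes tested, 1 was called higher and 3 lower in Sp3KO ESC than in WT. In Sp3KO HE2 1 was called higher and 2 lower, and in Sp3KO progenitors 3 lower. Among all genes 11.3%, 13.8% and 8.65% were called. In Sp1_deltaDBD HE2 2 were called lower, and in progenitors 1 higher and 1 lower, where 9.67% and 8.78% of all genes were called. The counts in HE2 and in Sp1_deltaDBD progenitors are near those shares. How these calls hold without single libraries is not given here.

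Of 18 genes of iron-sulphur cluster assembly, 4 were called between Sp3KO and Sp1_deltaDBD in HE1 and 3 in HE2, all higher in Sp3KO. Among all genes 13.6% and 15.9% were called, so these counts are near the shares over all genes. In HE1 the called genes were Glrx5 (1.03), Nubp2 (0.81), Nfs1 (0.58) and Ciapin1 (0.54), and in HE2 Glrx5 (0.93), Nubp2 (0.77) and Ciapin1 (0.66).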
